A study of Mus musculus with 11 samples.

Results

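The subunits of 2 vesicle tethering complexes, the exocyst and GARP, were followed in mouse Leydig tumor cells (MLTCs) after *Mamld1* knockdown. The members were all probes of *Exoc1* to *Exoc8*, *Vps53*, and *Vps54*, found through the accession on the array and the gene symbol of that accession. Where that gave no symbol, the gene symbol deposited by the authors was used, as for a *Vps53* probe. There were 17 member probes of 10 genes, 12 of the exocyst and 5 of GARP, among 41174 probes in all. The *Exoc4* and *Vps53* genes were selected on the rise of their array signal with both siRNAs, so the values of their rising probes are a description without a test, and the tests concern the other 15 probes.

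MLTC-1 is an established mouse Leydig tumor cell line, and all 3 groups were cells of this line. Cells were transiently transfected at 20 nM with non-targeting control RNA (4611G; 4 arrays), siRNA1 against *Mamld1* (4 arrays), or siRNA2 against *Mamld1* (3 arrays), using Lipofectamine RNAiMAX. The labels place RNA extraction at 48 h after transfection. The methods take the RNA at the time of the steroid measurements, which followed addition of human chorionic gonadotropin, and the labels do not mention that hormone. Nothing states that the replicates were separate cultures, so p-values measure the spread between these samples, which may be technical.

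Tethering complexes hold an arriving vesicle at its target membrane before SNARE proteins fuse the membranes. The exocyst acts at the plasma membrane, where secretory and recycling vesicles dock, and is built from 8 subunits in 2 modules, Exoc1 to Exoc4 and Exoc5 to Exoc8. Ral and Rab11 GTPases bind individual exocyst subunits. GARP acts at the trans-Golgi network, where vesicles returning from endosomes dock. Vps54 is its particular subunit, while Vps53 is shared with EARP, a complex of recycling endosomes that has Vps50 in place of Vps54. Steroids leave Leydig cells without vesicles, whereas peptide products such as Insl3 and membrane proteins such as the receptor for luteinizing hormone travel by them.

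The promoter windows of the 2 picked genes and of *Exoc8*, which rose with siRNA1 only, are given first because the 3 genes moved differently. Each runs from 250 bases before to 50 bases after the annotated start in RefSeq on GRCm38.p6, 5′ to 3′ on the strand of the gene. All 10 member genes matched this table. Capitals mark the letters TGGGAA or CCGGAAGT on either strand.
Exoc4 promoter, chr6:33248878-33249177, plus strand: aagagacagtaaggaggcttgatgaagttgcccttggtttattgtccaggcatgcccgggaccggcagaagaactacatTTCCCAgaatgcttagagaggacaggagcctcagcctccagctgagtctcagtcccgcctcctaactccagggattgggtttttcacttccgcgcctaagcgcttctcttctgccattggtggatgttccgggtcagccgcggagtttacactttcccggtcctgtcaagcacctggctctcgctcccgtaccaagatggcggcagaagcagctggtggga
Vps53 promoter, chr11:76179589-76179888, minus strand: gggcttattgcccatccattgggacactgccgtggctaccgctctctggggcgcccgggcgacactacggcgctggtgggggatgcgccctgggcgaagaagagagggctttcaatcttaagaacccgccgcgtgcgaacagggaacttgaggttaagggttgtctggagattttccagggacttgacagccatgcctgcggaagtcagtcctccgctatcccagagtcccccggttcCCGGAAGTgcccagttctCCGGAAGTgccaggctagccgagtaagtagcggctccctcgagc
Exoc8 promoter, chr8:124897656-124897955, minus strand: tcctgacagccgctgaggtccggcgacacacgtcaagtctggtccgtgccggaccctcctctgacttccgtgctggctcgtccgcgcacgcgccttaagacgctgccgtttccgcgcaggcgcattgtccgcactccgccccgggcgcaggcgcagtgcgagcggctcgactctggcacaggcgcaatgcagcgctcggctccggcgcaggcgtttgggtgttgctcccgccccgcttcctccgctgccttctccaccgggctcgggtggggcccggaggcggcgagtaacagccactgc
The core letters bound by RBPJ, the DNA-binding protein of Notch signaling (TGGGAA), stood in the windows of 2 of 10 member genes, *Exoc2* and *Exoc4*, and in 25.6% of 32851 promoter windows. In *Exoc4* they lay 171 bases before the start on the opposite strand. The ETS factor letters CCGGAAGT, which were chosen after the windows were seen, stood in 3 of 10 member genes (*Exoc1*, *Exoc3*, and *Vps53*) and in 3.89% of all windows. *Vps53* held them 2 times, 12 bases before and 6 bases after its start. The letters AAGGTCA, bound by NR5A1, and the cAMP response element TGACGTCA stood in 0 of 10 member genes, against 4.72% and 1.79% of all windows. The window of *Exoc8* held none of the 4 motifs. A member gene counted if any of its windows held the letters, and *Exoc1* and *Exoc2* had 4 and 2 windows. The background counts single windows, so the 2 shares are in unlike units.

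All 17 probes were well above background on all 11 arrays and entered the test, each from 1 spot per array. Levels are percentages in which the 4 control arrays have a geometric mean of 100%, after each array was scaled to its 75th percentile of signal. Each probe was measured against itself only, since probes differ in brightness for reasons other than RNA amount. The arrays lay on 3 slides, each of which held all 3 groups, and values with the slide as a block are given beside the results that passed.

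**Figure D1:**
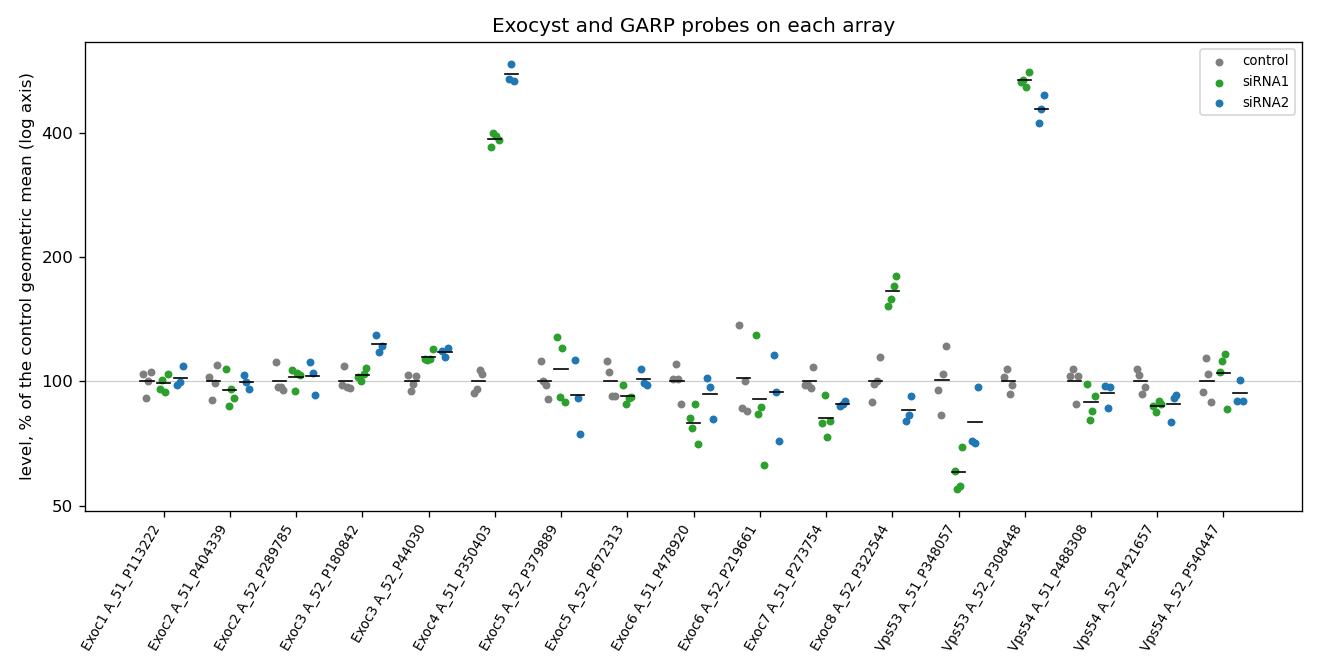
Level of each exocyst and GARP probe on each of the 11 arrays, as percent of the control geometric mean on a log axis, with a black bar for the mean of each group. The rising probes of *Exoc4* and *Vps53* lie above 370% on all siRNA arrays, *Exoc8* is high on the siRNA1 arrays, and the remaining probes lie between 54.8% and 137%.

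In siRNA1-transfected MLTCs, 5 of the 15 probes that were not picked passed the test (33.3%; adjusted p of 0.05 or less), against 27% of all 24250 tested probes. *Exoc8* and 1 *Exoc3* probe were higher, and *Exoc6*, *Exoc7*, and the other *Vps53* probe were lower. In siRNA2-transfected MLTCs, 2 of the 15 passed (13.3%), against 18.4% of all tested probes, and these were the 2 probes of *Exoc3*, both higher. The median log2 change of the 15 was -0.07 with siRNA1 and -0.10 with siRNA2, and that of all tested probes was -0.05 and -0.01. The values of siRNA1 or siRNA2 arrays did not overlap those of control arrays for 5 of the 15 probes (background 29.1%) and 4 of the 15 probes (background 28%), respectively. Shares of this size were close to those of all tested probes. With the slide as a block, the same 5 probes passed with siRNA1 (background 35.8%), and 4 of the 15 passed with siRNA2 (background 25.5%), the 2 probes of *Exoc3* together with *Exoc8* and the second *Vps53* probe. With a fold change of at least 2 required as well, limma called 0 of the 15 with either siRNA, because the log2 changes ran from -0.74 to 0.72 (background 2.99% and 2.25%). Without that requirement, 6 and 4 of the 15 had an unadjusted p under 0.05.

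**Figure D2:**
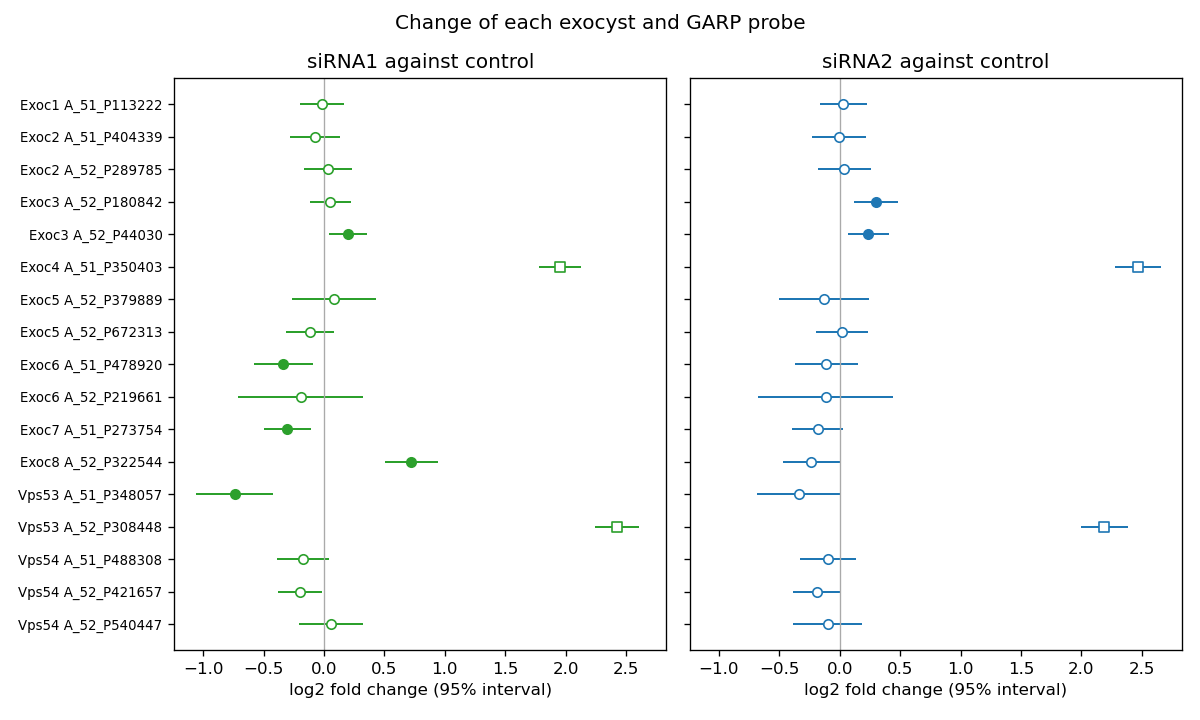
Log2 fold change of each probe against control, with its 95% interval from limma, for siRNA1 (left) and siRNA2 (right). Filled circles passed at an adjusted p of 0.05, open circles did not, and open squares are the 2 picked probes, which have no test. Their intervals are drawn too, but these probes were selected on this rise, so the intervals are no evidence of it. The picked probes stand at 1.95 and 2.42 with siRNA1 and at 2.47 and 2.19 with siRNA2.

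*Exoc4*, the Sec8 subunit of the exocyst, has 1 probe (A_51_P350403). Its level was 93.7%, 95.9%, 107%, and 104% on the control arrays. It was 370%, 399%, 394%, and 384% on the siRNA1 arrays and 541%, 589%, and 533% on the siRNA2 arrays. The 3 groups did not overlap, and the siRNA2 arrays were the highest. The means were 387% ± 12.8 (SD, n = 4) and 554% ± 30.1 (SD, n = 3). On the log2 scale the rise was 1.95 with siRNA1 and 2.47 with siRNA2, the 16th and 5th highest of 24250 probes. The mean signal was 334 in control, 1628 in siRNA1, and 1962 in siRNA2 arrays, far above background in all groups. Within the 3 slides the rise ran from 1.88 to 1.97 for siRNA1 and from 2.35 to 2.51 for siRNA2.

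*Vps53*, the subunit shared by GARP and EARP, has 2 probes that moved in opposite directions. The rising probe (A_52_P308448) was designed on a RIKEN cDNA of adult mouse small intestine, and its gene name comes from the table the authors deposited. The level of this probe was 102%, 107%, 93.2%, and 97.8% on the control arrays. It was 532%, 538%, 517%, and 562% on the siRNA1 arrays and 422%, 456%, and 494% on the siRNA2 arrays. All siRNA arrays lay far above the control arrays, and here the siRNA1 arrays were the highest. The means were 537% ± 18.9 (SD, n = 4) and 457% ± 35.7 (SD, n = 3), or 2.42 and 2.19 on the log2 scale, the 2nd and 8th highest of all tested probes. The probe was dim, with a mean signal of 12.1 in control arrays, where the lowest signal called well above background was 6.94 to 7.99 per array. With normexp background correction, which adds an offset of 50 to every signal, the log2 rise was 1.35 and 1.08, and 0.67 and 0.64 once extreme local backgrounds were replaced.

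The second *Vps53* probe (A_51_P348057), designed on the RefSeq transcript, had a mean signal of 1372 in control arrays. Its level was 95.2%, 82.7%, 104%, and 122% on the control arrays, 60.8%, 54.8%, 55.7%, and 69.3% on the siRNA1 arrays, and 71.6%, 71.0%, and 96.8% on the siRNA2 arrays. All siRNA1 arrays lay below all control arrays, while the siRNA2 arrays overlapped them. The level fell with siRNA1 to 60.1% ± 6.69 (SD, n = 4), a log2 change of -0.74 (SE 0.142, adjusted p = 0.00296; exact permutation p = 0.0286, the smallest possible). The log2 change with siRNA2 was -0.34 (adjusted p = 0.161) at 79.8% ± 14.7 (SD, n = 3), and -0.38 (adjusted p = 0.0168) with the slide as a block, which gave -0.75 with siRNA1 (adjusted p = 0.000297). Within slides, the change with siRNA1 ran from -0.92 to -0.55 and the change with siRNA2 from -0.56 to -0.31. Which transcripts the 2 probes detect was not tested.

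*Vps54*, the GARP-specific subunit, has 3 probes, none of which passed in any comparison with limma. The probe A_52_P421657 came nearest. On the control arrays it lay between 92.9% and 107%, on the siRNA1 arrays between 84.2% and 89.8%, and on the siRNA2 arrays between 79.8% and 92.5%. Neither siRNA group overlapped control, at log2 changes of -0.20 (unadjusted p = 0.0312, adjusted p = 0.0928) and -0.19 (unadjusted p = 0.0501, adjusted p = 0.164). The per-probe test named in the methods, adjusted in the same way, passed this probe for siRNA1. The other 2 probes had changes between -0.17 and 0.06 with siRNA1 and of -0.10 with siRNA2. Of the remaining subunits of GARP and EARP, *Vps52* and *Vps50* were named on the array. Their log2 changes were -0.01 and -0.03 with siRNA1 and 0.00071 and -0.08 with siRNA2, and 0 of these 2 probes passed with limma, at an unadjusted p of 0.05, or by the test named in the methods.

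*Exoc8*, the Exo84 subunit, through which Ral GTPases bind the exocyst, rose with siRNA1 and had a difference between the siRNAs. Its level was 88.9%, 98.3%, 100.03%, and 114% on the control arrays, 153%, 159%, 170%, and 180% on the siRNA1 arrays, and 80.2%, 82.9%, and 92.3% on the siRNA2 arrays. The siRNA1 arrays stood above all others, and the siRNA2 arrays overlapped the lower end of control. The log2 change was 0.72 with siRNA1 (SE 0.096, adjusted p = 0.000286; exact permutation p = 0.0286), at 165% ± 12.2 (SD, n = 4). With siRNA2 it was -0.23 (adjusted p = 0.153), and -0.26 (adjusted p = 0.0200) with the slide as a block, at 85.1% ± 6.31 (SD, n = 3). The block gave 0.70 with siRNA1 (adjusted p = 8.15e-05), and within the slides the change with siRNA1 ran from 0.66 to 0.72. The difference between the siRNAs was itself 0.96 (SE 0.104, adjusted p = 8.12e-05). It was 0.96, 0.99, and 0.93 within the 3 slides.

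**Figure D3:**
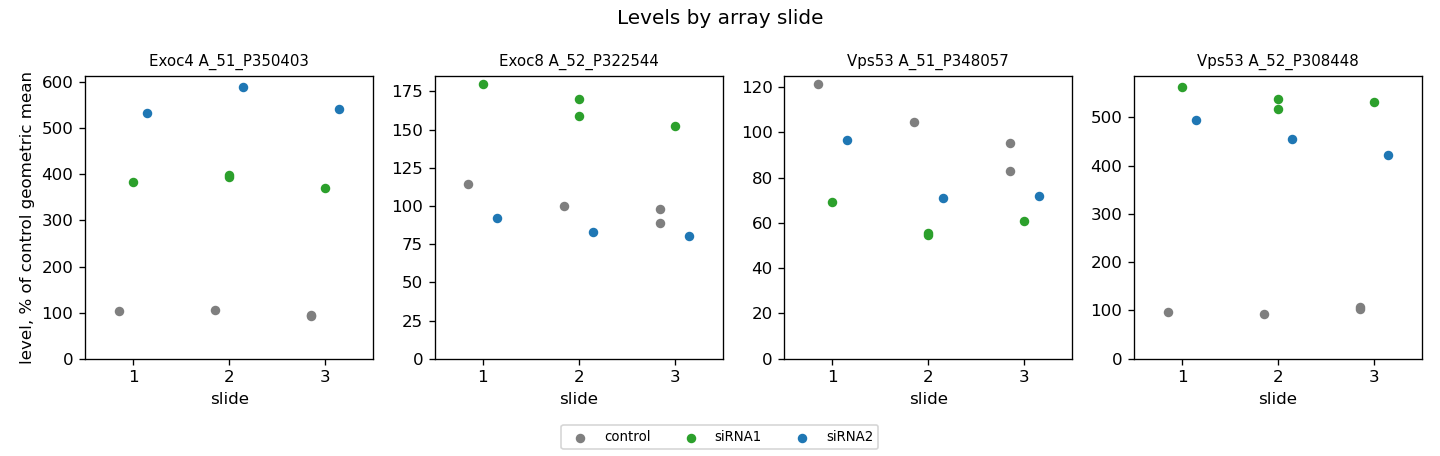
Levels of *Exoc4*, *Exoc8*, and both *Vps53* probes by array slide, as percent of the control geometric mean; each point is 1 array. Within every slide *Exoc4* and A_52_P308448 of *Vps53* are higher in both siRNA groups than in control, *Exoc8* is highest with siRNA1, and A_51_P348057 of *Vps53* is lower with both siRNAs than in control.

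The remaining members of the second module changed little. *Exoc7*, the Exo70 subunit, which binds membrane phosphoinositides and the GTPase Rhoq, lay between 96.3% and 108% on the control arrays and between 73.3% and 92.5% on the siRNA1 arrays. Its log2 change was -0.30 with siRNA1 (SE 0.085, adjusted p = 0.0209) and -0.18 with siRNA2 (adjusted p = 0.212), where all 3 arrays, at 86.9%, 87.9%, and 89.6%, also lay below control. *Exoc6*, the Sec15 subunit that binds Rab11, was lower with siRNA1 by its probe A_51_P478920, at 79.4% ± 7.44 (SD, n = 4; log2 change -0.34, adjusted p = 0.0371), although the highest siRNA1 array (88.3%) overlapped the lowest control array (88.1%). Its second probe varied from 84.7% to 137% among the control arrays alone, and its changes of -0.19 and -0.12 were within that spread. With the slide as a block, *Exoc7* and *Exoc6* A_51_P478920 had changes of -0.31 (adjusted p = 0.0197) and -0.33 (adjusted p = 0.00636) with siRNA1. The 2 probes of *Exoc5*, the Sec10 subunit, had log2 changes between -0.13 and 0.08 against control, with adjusted p-values from 0.357 to 0.935.

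In the first module, *Exoc3*, the Sec6 subunit, showed small rises. The probe A_52_P44030 lay between 94.97% and 104% on the control arrays, between 113% and 120% on the siRNA1 arrays, and between 114% and 121% on the siRNA2 arrays. Both siRNA groups lay above control without overlap, at log2 changes of 0.20 (adjusted p = 0.0494) and 0.24 (adjusted p = 0.0442). The probe A_52_P180842 had log2 changes of 0.05 with siRNA1 (adjusted p = 0.651) and 0.30 with siRNA2 (adjusted p = 0.0224). The block gave 0.20 and 0.23 for A_52_P44030 (adjusted p = 0.0253 and 0.0239) and 0.31 for A_52_P180842 with siRNA2 (adjusted p = 0.0116). *Exoc1*, the Sec3 subunit that contacts the plasma membrane, and both probes of *Exoc2*, the Ral-binding Sec5 subunit, had log2 changes between -0.07 and 0.04. Their adjusted p-values were 0.597 to 0.977. The calls for *Exoc3*, *Exoc6*, and *Exoc7* were near the threshold and changed when single arrays were left out. Without siRNA1 replicate 1, *Exoc8* and *Vps53* were the only members that passed with siRNA1. Each of the 4 control arrays, when left out, also took away 2 of the 5 calls. So did siRNA2 replicate 2, an array of neither group, without which *Exoc3* and *Exoc6* missed. With siRNA2, *Exoc3* A_52_P44030 missed the threshold without any 1 of the 11 arrays, and A_52_P180842 missed it without control replicate 1, 3, or 4 or siRNA2 replicate 1 or 3.

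Between the siRNAs, 2 of the 15 probes that were not picked passed (13.3%), against 23.5% of all tested probes, and 4 of the 15 did not overlap (background 31.3%). At a fold change of at least 2 limma called 0 of the 15 (background 3.36%), and 3 had an unadjusted p under 0.05. *Exoc8* was higher with siRNA1, as given above. *Exoc3* A_52_P180842 had a difference of -0.25 (adjusted p = 0.0426), siRNA1 minus siRNA2, and of -0.24 (adjusted p = 0.0296) with the slide as a block. That call was lost without any array other than control replicate 2. The second *Vps53* probe was 0.40 lower with siRNA1 (95% interval from -0.74 to -0.06, adjusted p = 0.0858), and the block gave a difference of -0.37 (adjusted p = 0.0141). With the block, 4 of the 15 probes passed (background 32.1%). As a description of the picked probes, the difference was -0.52 for *Exoc4* and 0.23 for the rising *Vps53* probe.

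Other tethers and the partners of both complexes were examined through lists of 98 tested genes with 173 probes. In siRNA1-transfected MLTCs 15 of these probes rose and 36 fell (29.5%), while 6 rose and 28 fell (19.7%) in siRNA2-transfected MLTCs, shares close to those of all tested probes (27% and 18.4%). Between the siRNAs, 28 were higher and 16 lower with siRNA1 (25.4%), against 23.5% of all tested probes. The rises and falls of all tested probes are not given apart. Whether the balance of rises and falls in the lists differs from theirs was not tested.

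Among the GTPases that act on the exocyst and their activators, 3 of 35 probes were higher and 4 lower with siRNA1 (20%, background 27%). With siRNA2, the counts were 3 higher and 5 lower (22.9%, background 18.4%). *Rhoq*, a GTPase that binds Exoc7, fell with both siRNAs by the probe A_51_P338317, to 73.6% ± 6.14 (SD, n = 4) and 33.7% ± 0.465 (SD, n = 3). Its second probe passed with siRNA2 only (log2 changes -0.35 and -1.38). *Rab11b*, a GTPase of recycling endosomes, rose with both siRNAs by 2 of its 4 probes, to 132% and 143% and to 138% and 168%, and its other 2 probes had changes between -0.13 and 0.02. Among the exocyst paralogs, *Tnfaip2* (M-Sec) fell to 56.8% ± 13.7 (SD, n = 4) and 34.3% ± 5.63 (SD, n = 3). Of the 3 probes of this list, 2 and 1 were lower with siRNA1 and siRNA2 (background 27% and 18.4%).

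Of the exocytic SNAREs and their regulators, 2 of 27 probes were higher and 7 lower with siRNA1 (33.3%, background 27%). With siRNA2, 8 were lower (29.6%, background 18.4%). The plasma membrane syntaxins *Stx1a* and *Stx2* fell with both siRNAs, with log2 changes of -0.42 and -0.53 and of -0.61 and -0.57. A second *Stx2* probe, A_52_P301503, passed with siRNA2 only (log2 changes -0.26, adjusted p = 0.0671, and -0.55). *Snap23*, singled out after its values were seen, differed between the siRNAs by 0.99 to 1.05 at all 3 of its probes (adjusted p from 7.94e-05 to 0.00180). It fell with siRNA2 by 0.61 to 0.65. With siRNA1 its log2 changes were 0.37 to 0.41, where only the probe A_52_P155778 passed (adjusted p = 0.0160). Of 25 probes of the trans-Golgi and endosomal partners of GARP and EARP, 4 were higher and 5 lower with siRNA1 (36%, background 27%). With siRNA2, 5 were lower (20%, background 18.4%). The GTPase *Arl5a* and the SNARE *Vamp4* each had 1 probe that fell with both siRNAs, and each had a second probe that rose with siRNA1 (log2 changes 0.79 and 0.49). *Rab6a*, a Golgi GTPase also singled out after its values were seen, fell with siRNA2 at both of its listed probes, by 0.85 and 0.84.

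Of the other tethers, the Dsl1 (NRZ) complex of the endoplasmic reticulum and its SNAREs had 6 of 7 probes lower with siRNA1 and 2 lower with siRNA2. These shares were 85.7% and 28.6% (background 27% and 18.4%). The list had a median log2 change of -0.44 with siRNA1, against -0.05 for all tested probes. *Bnip1*, its SNARE, fell at both probes, to 73.6% and 70.9% with siRNA1 and to 31.5% and 31.4% with siRNA2. The 4 other lower probes with siRNA1 belonged to *Stx18*, *Use1* (2 probes), and *Rint1*, named after their values were seen, at log2 changes from -0.50 to -0.36. In TRAPP, whose complexes tether vesicles at the Golgi, 2 of 21 probes were higher and 6 lower with siRNA1 (38.1%, background 27%). The counts with siRNA2 were 1 and 4 (23.8%, background 18.4%). *Trappc2*, a small subunit of TRAPP, rose to 247% ± 15.9 (SD, n = 4) and 263% ± 28.0 (SD, n = 3), and *Trappc5* fell at 1 of 2 probes, with log2 changes of -0.34 and -0.42.

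Of 29 probes of the coiled-coil Golgi tethers, 3 rose and 3 fell in siRNA1-transfected MLTCs (20.7%, background 27%). In siRNA2-transfected MLTCs 2 rose and 3 fell (17.2%, background 18.4%). *Blzf1* (golgin-45) rose at 2 of its 3 probes, to 283% ± 26.0 (SD, n = 4) and 281% ± 16.5 (SD, n = 3) at A_52_P375003 and to 125% and 121% at A_51_P378009. *Tmf1*, a golgin that binds Rab6, fell to 77.4% and 82.8%. HOPS and CORVET, the tethers of late and early endosomes, had 1 of 14 probes higher and 2 lower with siRNA1 (21.4%, background 27%). The COG complex of the Golgi had 1 of 10 lower (10%). With siRNA2, limma passed 0 of these 14 and 0 of these 10 probes (background 18.4%). Of them 3 and 2 had an unadjusted p under 0.05, and the adjusted test named in the methods passed 0 and 0.

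**Figure D4:**
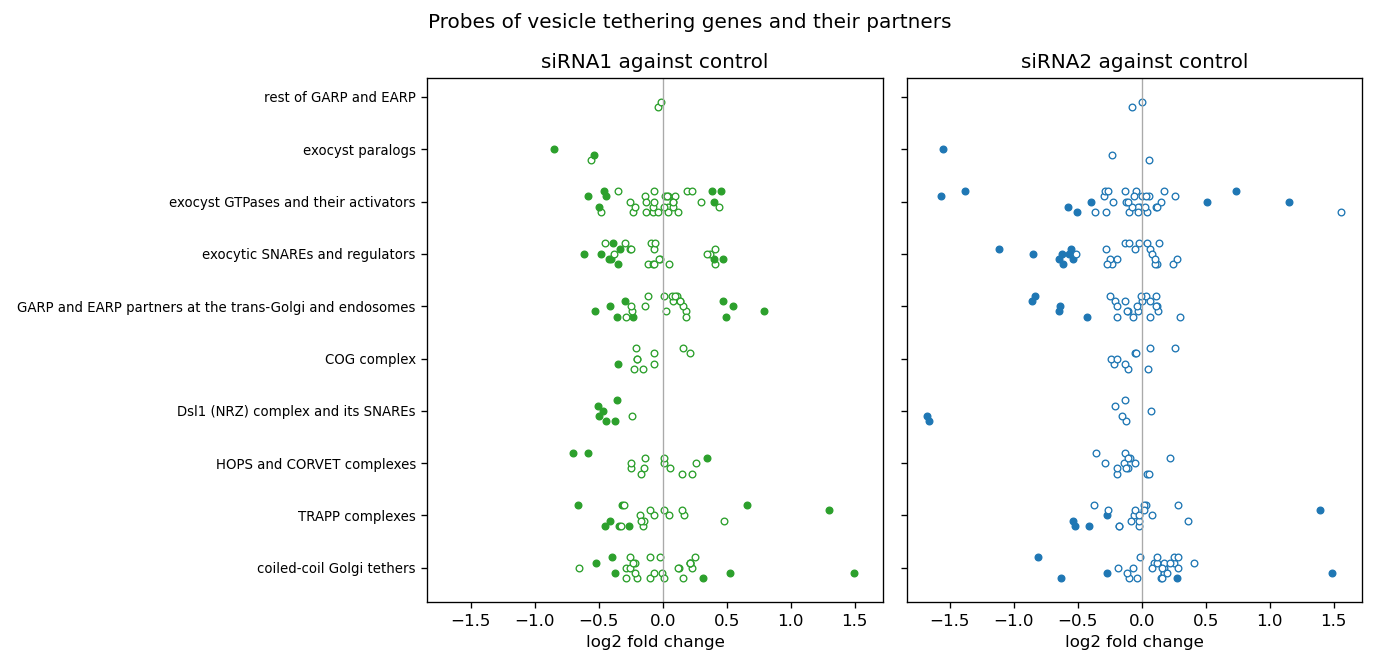
Log2 fold change of each probe of the other tethers and partners, by list, for siRNA1 (left) and siRNA2 (right); filled points passed at an adjusted p of 0.05 and open points did not. Probes lie on both sides of 0 in most lists, *Bnip1* stands lowest with siRNA2, and *Trappc2* and 1 *Blzf1* probe stand highest among the filled points with both siRNAs.

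The probes most like the rising probe of *Exoc4* across the 11 arrays, by Pearson correlation of log2 values among 16973 named and tested probes, were those of *Pigx* (0.991), *Dhx33* (0.988), *Rpsa* (0.988), *Gle1* (0.986), and *Clasp2* (0.986). All 5 were higher in both siRNA groups than in control and higher with siRNA2 than with siRNA1, from 164% and 181% for *Gle1* to 326% and 475% for *Clasp2*. The probes most like the rising probe of *Vps53* were those of *Lysmd1* (0.994 and 0.990 for 2 probes), *Ywhah* (0.994), *Eps15* (0.989), and *Gopc* (0.989). Their means ran from 210% and 208% for *Gopc* to 333% and 338% for *Lysmd1*. These correlations describe 3 group levels on 11 shared arrays, so they come with no test. Picking probes by likeness favors those with the same order of group levels.

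The cells carried the Leydig cell markers of their label, though not these alone. All 8 Leydig cell genes examined, among them *Star*, *Cyp11a1*, and *Lhcgr*, were well above background on all 11 arrays. Of the 5 macrophage genes none was above background on all arrays, with *Csf1r* on at most 6 and *Itgam* on at most 1. Of the 4 endothelial genes, *Cdh5* was above it on all arrays, *Pecam1* on 3, and *Kdr* and *Tek* on none. Of 6 Sertoli cell genes 4 were above it on all arrays (*Clu*, *Dhh*, *Gata1*, and *Amh*), with *Fshr* on 3 and *Sox9* on none. The endothelial gene *Cdh5* rose with both siRNAs (log2 changes 1.22 and 0.84 at its probe A_52_P248604). Of 11 Leydig cell probes, 2 were lower with siRNA1 (18.2%) and 1 with siRNA2 (9.09%), against 27% and 18.4% of all tested probes. These were *Cyp17a1* with both (-0.92 and -0.48) and *Lhcgr* with siRNA1 (-0.63). Of the 3 germ cell genes, *Kit* was above background on all arrays, *Ddx4*, which fell with siRNA1 (-1.72), on 8, and *Dazl* on at most 1. *Ddx4* was dim, at a mean signal of 19.6 in control and 7.80 in siRNA1 arrays. On the siRNA1 arrays the lowest signal called well above background was 7.62 to 8.90, so the size of its fall is uncertain. *Dhh* of the Sertoli cell genes rose with siRNA2 (0.72). The part of these markers in the results was not tested. *Mamld1* itself was at 101% ± 17.1 (SD, n = 4) in control. It was at 54.0% ± 15.4 (SD, n = 4) in siRNA1-transfected MLTCs and at 59.8% ± 12.6 (SD, n = 3) in siRNA2-transfected MLTCs, and both siRNA groups lay below all control arrays. Its probe was dim, with a mean signal of 28.8 in control, 19.1 in siRNA1, and 17.9 in siRNA2 arrays. The lowest signal called well above background was 6.94 to 8.90 per array. The 75th percentile of signal was 470 to 774 per array, and 58.6% to 62.6% of spots were well above background. In such bulk samples, fewer cells of a type and less RNA per cell cannot be told apart.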

How the data were processed

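RNA of 11 MLTC samples was hybridized to 1-color Agilent arrays, 1 Cy3-labeled sample per array from 300 ng of RNA. Per the file headers, the deposited signal intensities were made with Feature Extraction (version 9.5.1.1), which subtracted background within each array and did not normalize between arrays. The authors also deposited group averages of selected probes as intensities and as normalized log2 values. The averages were compared with the arrays for *Exoc4* and *Vps53* only, where the intensities equal the array means, and their gene symbols named 29 probes. By its title, that selection was made on p-value and fold change. A probe without a RefSeq name could thus become a member or list probe only if the authors had selected it. The rising *Vps53* probe was named in this way. RefSeq accessions (GRCm38.p6) named 24375 probes, and 16770 stayed unnamed. The array was annotated on an older genome build, so no probe coordinates are given.

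Signals were scaled to the 75th percentile of each array on the log2 scale. Spots flagged as outliers were left out, which touched no member probe. The test took the 24250 probes that the software marked well above background throughout 1 group or more. All 11 arrays entered 1 fit in limma (version 3.58.1) under R (version 4.3.3), using lmFit, contrasts.fit, and eBayes, and p-values were adjusted over all tested probes after Benjamini and Hochberg. Two-sided exact permutation tests are given for single values, and their smallest p is 0.0286 for 4 arrays against 4 or 3. The number of arrays limits the precision.

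Samples were grouped by their labels. Alternatives were normexp background correction, quantile or median scaling, other filters on dim probes, outlier spots kept, the slide or replicate number as a block, separate fits, eBayes with trend, the methods' t-test, a fold change of at least 2, and each array left out. Normexp used the median spot intensity. The version with extreme local backgrounds replaced was chosen after seeing the data. The genes named are all members, list genes that passed with both siRNAs in the same direction, and the 5 probes most like each picked probe, with exceptions stated. The rising probes of *Exoc4* and *Vps53* entered no count. The members and lists were chosen with earlier results of these data known. Same-numbered replicates did not deviate together in every case and were not treated as pairs.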

Additional observations from a re-analysis of the deposited data

Results flagged for a closer look

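On 4 occasions 1 array lay apart from the others of its group. Control replicate 1 was at 112% for *Exoc2* A_52_P289785, control replicate 2 at 109% for *Exoc3* A_52_P180842, control replicate 4 at 108% for *Exoc7*, and siRNA1 replicate 4 at 120% for *Exoc3* A_52_P44030. In all, 34 groups of 4 arrays were examined, and chance sets an array apart in about 1 of 20 groups. The effects of the siRNAs differed, by a test of the difference, for *Exoc3* A_52_P180842 (-0.25 on the log2 scale, siRNA1 minus siRNA2) and for *Exoc8* (0.96).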

How the results depend on the processing

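The number of member probes that passed with siRNA1 (5 of 15) was 0 with normexp, 2 with median scaling, 3 with no filter on dim probes, 0 with a fold of at least 2, and 2 to 4 without single arrays. With siRNA2 (2 of 15) it was 0 with normexp, 0 with median scaling, 0 with no filter, 0 with only the arrays of the 2 groups, 0 with the fold, 4 with the slide as a block, and 0 to 1 without single arrays. Between the siRNAs (2 of 15) it was 0 with normexp, 0 with the fold, 1 each with quantile normalization, median scaling, no filter on dim probes, and only the arrays of the 2 groups, 4 with the slide as a block, 4 with the methods' t-test at its unadjusted threshold, and 1 to 2 without single arrays. Where limma passed 0, an unadjusted p under 0.05 was held with normexp by 4, 0, and 1 probes in the 3 comparisons, and for siRNA2 by 1 (median scaling), 2 (no filter), and 2 (only the arrays of 2 groups); the adjusted t-test passed 5, 2, and 2 on the values as reported. Normexp lowered the calls among all probes to 381, 123, and 81 of 24250, from 6553, 4472, and 5709, and with extreme backgrounds replaced they were 7411, 3761, and 5462. No filter on dim probes gave 3211 for siRNA2, and the t-test adjusted gave 2854. The rises of *Exoc8* and falls of *Vps53* A_51_P348057 with siRNA1 passed without each array in turn. They missed with normexp (adjusted p = 0.0753 and 0.0630) and passed with normexp once extreme backgrounds were replaced. That version, chosen after seeing the data, passed 5, 2, and 2 members in the 3 comparisons, of which 5, 2, and 1 were the reported ones. For the other lists (51, 34, and 44 probes), normexp gave 2, 3, and 2, the fold 2, 9, and 8, median scaling 33 for siRNA1, and the unadjusted t-test 54 for siRNA2; without single arrays they were 34 to 51, 28 to 34, and 35 to 47. Signs turned as follows: *Exoc3* A_52_P180842 with siRNA1 was -0.18 with normexp; *Exoc5* A_52_P672313 with siRNA2 was -0.17 with normexp, -0.0024 with the replicate block, and -0.022 to 0.073 without single arrays; and between the siRNAs *Vps54* A_52_P421657 was 0.011 with normexp, 0.033 with median scaling, 0.0066 with normexp and replaced backgrounds, and -0.076 to 0.031 without single arrays, and *Exoc3* A_52_P44030 was 0.0021 with median scaling. The causes were not tested.

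With the replicate block, 5, 2, and 2 members passed, of which 5, 2, and 1 were the reported ones. Same-numbered arrays correlated from -0.183 to 0.533 in their deviations from the group means, and 2 of 4, 2 of 3, and 2 of 3 arrays correlated best with their own number. Among the 7 probes that neither passed nor separated in any comparison, 0 of 21 values passed under any of 24 alternatives, and 15 turned sign under at least 1.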
